A study of Mus musculus with 8 samples.

Results

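LT-HSC signature genes are genes whose expression marks long-term haematopoietic stem cells (LT-HSC), the cells that sustain blood formation for the life of the animal. The list held 9 genes chosen by symbol, Procr, Esam, Robo4, Fgd5, Ctnnal1, Sult1a1, Hoxb5, Mllt3 and Hoxa9. On the array 29915 genes had a probe set of their own, with all listed genes but Hoxa9 among them. Each of 8 genes was measured by 1 probe set that carried its symbol alone. Hoxa9 was not analysed here, because the probe set with its symbol also carried the symbol of the microRNA gene Mir196b.

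RNA of LT-HSC sorted from mouse bone marrow was hybridised to 8 Affymetrix arrays, 2 in each of 4 groups. Mice were either wild-type (WT) or CD169-DTR, and either non-irradiated or given 2 Gy. CD169-DTR mice (CD169DTR/+ in the sample titles) carry 1 copy of the diphtheria toxin receptor in the gene of CD169 (Siglec1), a surface protein of a class of macrophages. All groups, WT included, had received diphtheria toxin, so that CD169+ macrophages were to be depleted in CD169-DTR mice only. Total body irradiation (TBI) with 2 Gy, or a sham irradiation, followed 72 h after the toxin, and cells were sorted 5 days later that stained for cKit, Sca and CD150 but not for lineage markers (Lin), Flk2 or CD48. The age of the mice and the number of mice behind each array are not given in the sources used here. The study's design text attributes the 2 replicates of each group to 2 experiments. Nothing states that both arrays of a group came from separate animals, so p-values measure only the spread between these samples, which may be technical.

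The listed genes have roles at the cell surface, in the cytoplasm and in the nucleus. Procr encodes the endothelial protein C receptor, Esam an adhesion molecule of cell junctions, and Robo4 a roundabout receptor that acts in the retention of HSC in the marrow. All of these surface proteins are shared by HSC and endothelial cells. Fgd5 encodes a guanine nucleotide exchange factor for the GTPase Cdc42, Ctnnal1 encodes alpha-catulin, a relative of alpha-catenin and vinculin, and Sult1a1 encodes a cytosolic sulfotransferase that acts on phenols. Reporter alleles of Fgd5, Ctnnal1 and Hoxb5 have been used to mark HSC in mice. Hoxb5 and Hoxa9 encode homeobox transcription factors, and Mllt3 (AF9) encodes a reader of acylated histones that recruits Dot1l and elongation factors and helps to maintain HSC.

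The sequences just before the starts of Robo4, Sult1a1, Fgd5 and Ctnnal1 are shown because these were the 4 members whose irradiated arrays all lay on 1 side of the non-irradiated ones. Each line gives the 250 bases before the RefSeq start on mouse assembly GRCm38.p6, read 5′ to 3′ in the direction of the gene. The windows are chr9:37401722-37401971 (plus strand) for Robo4, chr7:126676419-126676668 (minus strand) for Sult1a1, chr6:91978715-91978964 (plus strand) for Fgd5 and chr4:56865212-56865461 (minus strand) for Ctnnal1. Capitals mark the letters GGAA, the core of ETS factor sites, and GATA, each on either strand.
Robo4: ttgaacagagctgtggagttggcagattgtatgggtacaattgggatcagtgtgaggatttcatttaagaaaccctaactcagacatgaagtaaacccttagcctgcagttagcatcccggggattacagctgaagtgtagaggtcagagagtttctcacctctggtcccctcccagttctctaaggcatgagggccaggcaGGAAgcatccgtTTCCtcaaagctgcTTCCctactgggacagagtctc
Sult1a1: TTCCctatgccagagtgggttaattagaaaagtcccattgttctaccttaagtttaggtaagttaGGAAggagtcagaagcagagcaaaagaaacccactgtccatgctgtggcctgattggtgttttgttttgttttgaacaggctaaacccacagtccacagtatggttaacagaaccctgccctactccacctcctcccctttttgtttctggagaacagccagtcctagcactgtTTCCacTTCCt
Fgd5: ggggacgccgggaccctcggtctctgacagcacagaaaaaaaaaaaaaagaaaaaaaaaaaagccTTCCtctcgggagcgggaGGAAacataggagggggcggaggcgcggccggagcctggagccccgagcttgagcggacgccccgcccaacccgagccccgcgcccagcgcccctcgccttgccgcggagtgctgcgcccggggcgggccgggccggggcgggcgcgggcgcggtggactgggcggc
Ctnnal1: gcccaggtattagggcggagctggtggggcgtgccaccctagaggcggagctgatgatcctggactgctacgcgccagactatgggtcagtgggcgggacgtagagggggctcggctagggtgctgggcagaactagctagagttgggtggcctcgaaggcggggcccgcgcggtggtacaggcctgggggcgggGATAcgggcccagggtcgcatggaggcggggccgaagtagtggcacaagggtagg
GGAA was found 3 times before Robo4, 4 times before Sult1a1 and 2 times before Fgd5, and the window of Ctnnal1 held it 0 times and GATA 1 time. Of 32851 RefSeq windows of the same length, 93.4% held GGAA and 53.6% held GATA on either strand. The E-box letters CANNTG, in 66.2% of all windows, stood 2 times before Robo4, apart from its GGAA letters, and 0 times before the other 3. TGATTNAT, a pattern of Hox and Meis factors, was in 2.8% of windows, and TGACTCA, the AP-1 pattern, in 4.5%, and neither was in these 4. The windows of Fgd5 and Ctnnal1 were rich in G and C (71.6% and 68.4%), against 49.6% for Robo4, 45.6% for Sult1a1 and a median of 52.4% over all windows. Windows were found for 7 of the 9 listed genes. A match of letters is a description and no evidence of binding.

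Values are log2 expression, so a difference of 1 is a 2-fold change. In the whole table, replicates correlated at r = 0.991 to 0.994 across 30294 probe sets, and array medians lay between 4.86 and 5.03. A principal component analysis placed WT 2 Gy replicate 1 and CD169-DTR 2 Gy replicate 2 farthest from the other arrays. Cdkn1a, the p53 target that encodes the cell cycle inhibitor p21, was at 7.86 and 8.39 in WT non-irradiated arrays and at 13.06 and 13.41 in WT 2 Gy arrays. The CD169-DTR values were 9.79 and 9.34 without irradiation and 13.24 and 13.23 after it, so every irradiated array stood apart as labelled. Siglec1 lay between 3.86 and 4.12 in all 8 arrays, below every array's median, so in sorted LT-HSC it is no measure of macrophage depletion. Kit lay between 14.25 and 14.93 and Slamf1, which encodes CD150, between 10.66 and 12.38, far above the array medians. Within that range, all irradiated arrays of Kit lay below all non-irradiated ones, as in 1.74% of all probe sets. They were at 14.25 to 14.36 against 14.66 to 14.93. The difference averaged over both genotypes was -0.515 ± 0.0766 log2 (SE, limma adjusted p = 0.209). Flt3, which encodes Flk2, and Cd48, whose proteins the sort excluded, were also above the array medians, at 5.85 to 8.22 and at 10.98 to 13.47. All 8 measured members were above the array's median in all 8 arrays.

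**Figure D1:**
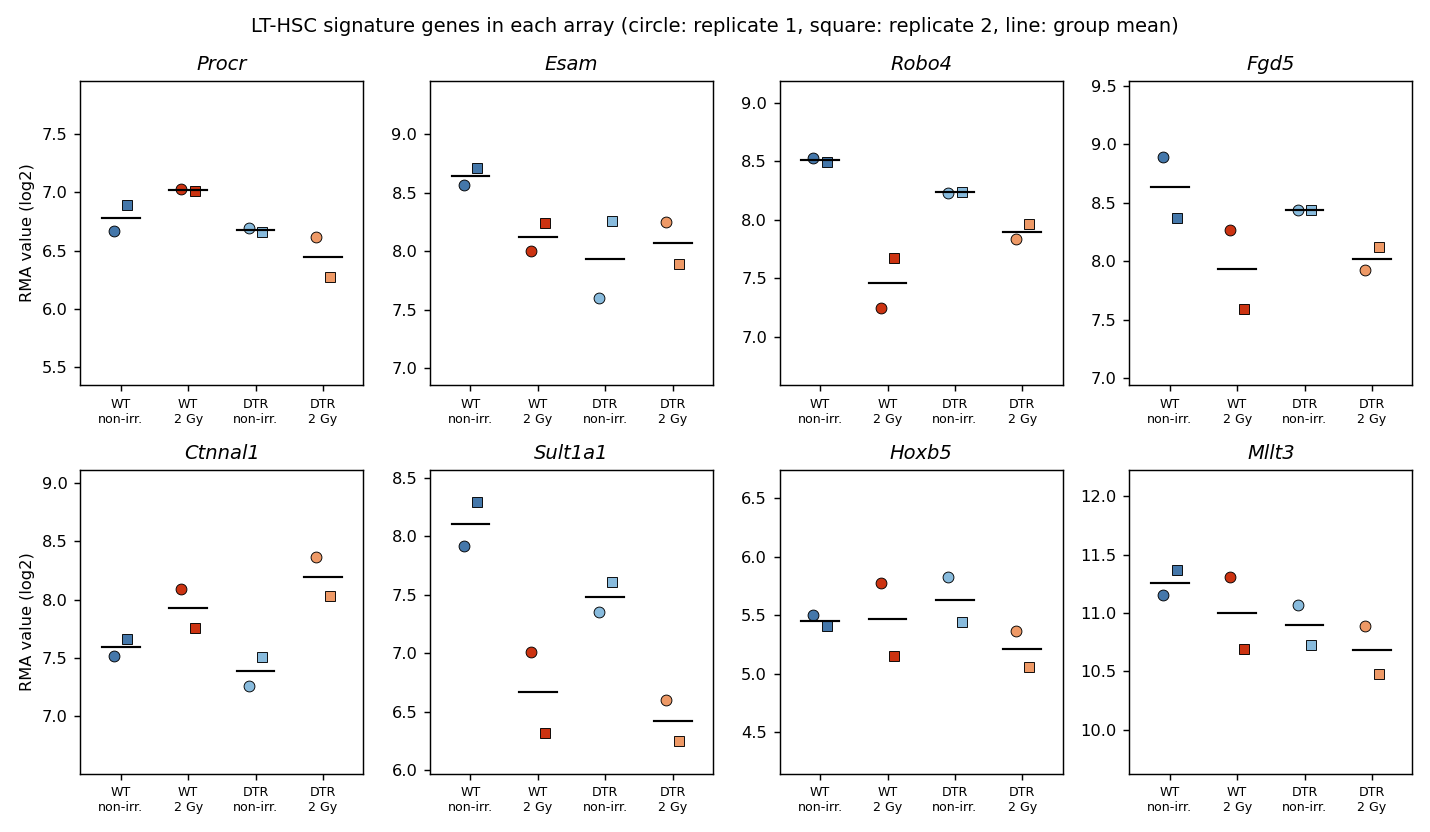
Log2 expression of the 8 measured members (vertical axis, 1 panel per gene) in the 4 groups (horizontal axis); points are the 2 arrays of a group and short lines their mean. In the panels of Robo4, Fgd5 and Sult1a1 all 4 arrays after 2 Gy sit below the 4 non-irradiated ones, and in the panel of Ctnnal1 they sit above.

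The first question was how the members differed 5 days after 2 Gy. Sult1a1, Robo4 and Fgd5 were lower in every irradiated array than in any non-irradiated one, by 2.37-fold, 1.62-fold and 1.47-fold on average over both genotypes, and Ctnnal1 was higher, by 1.49-fold. Procr, Esam, Hoxb5 and Mllt3 overlapped between irradiated and non-irradiated arrays. No member passed an adjusted p of 0.05 in any of the 6 comparisons, so none is called changed. For the count of 0 in WT, 0.0099% of all probe sets passed, and 3 of 8 members against 7.81% of all 30294 probe sets had an unadjusted p under 0.05. For irradiation in CD169-DTR, 0% of all probe sets passed and 2 of 8 members had such an unadjusted p, beside 6.77% of all probe sets. For the average over both genotypes 0.0099% passed and 4 of 8 members had such an unadjusted p, beside 9.23% of all probe sets.

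Among the surface proteins, Robo4 was the one that separated irradiated from non-irradiated arrays of both genotypes. It was at 8.53 and 8.49 in WT non-irradiated arrays and at 7.24 and 7.67 in WT 2 Gy arrays. CD169-DTR arrays stood at 8.23 and 8.24 without irradiation and at 7.83 and 7.96 after 2 Gy. All irradiated arrays lay below all non-irradiated ones, and those of WT were the lowest. The difference in WT was -1.06 ± 0.161 log2 (SE, n = 2 and 2), a 2.08-fold lower level (95% confidence interval 1.59 to 2.72), with a limma p of 0.000418 and an adjusted p of 0.301. In CD169-DTR it was -0.34 ± 0.161 log2 (adjusted p = 0.789 in limma).

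Esam was at 8.57 and 8.71 in WT non-irradiated arrays and at 8.0 and 8.24 in WT 2 Gy arrays. CD169-DTR arrays were at 7.6 and 8.26 without irradiation and at 8.25 and 7.89 after it. The WT arrays did not overlap, as in 13.2% of all probe sets on the lower side, whereas the CD169-DTR arrays did, and the non-irradiated CD169-DTR pair was the most spread. The limma difference was -0.52 ± 0.244 log2 in WT (adjusted p = 0.656) and 0.14 ± 0.244 in CD169-DTR (adjusted p = 0.964).

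Procr was at 6.67 and 6.89 in WT non-irradiated arrays and at 7.03 and 7.01 in WT 2 Gy arrays. In CD169-DTR, levels were 6.69 and 6.66 without irradiation and 6.62 and 6.27 after 2 Gy. Both irradiated arrays lay above the non-irradiated ones in WT, as in 31.4% of all probe sets, and below them in CD169-DTR, as in 13.4%. The limma differences were 0.24 ± 0.154 log2 (adjusted p = 0.705) and -0.23 ± 0.154 log2 (adjusted p = 0.872), and their average was 0.005 ± 0.109. The CD169-DTR difference was -0.055 without CD169-DTR 2 Gy replicate 2, and the WT difference was 0.13 without WT non-irradiated replicate 1.

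Of the cytoplasmic members, Sult1a1 differed most with irradiation. It was at 7.92 and 8.29 in WT non-irradiated arrays and at 7.01 and 6.32 in WT 2 Gy arrays. The CD169-DTR arrays gave 7.35 and 7.61 without irradiation and 6.6 and 6.25 after 2 Gy. All 4 irradiated arrays lay below all 4 non-irradiated ones. The level was 2.71-fold lower in WT (1.74 to 4.23; difference -1.44 ± 0.268 log2, limma adjusted p = 0.387). In CD169-DTR it was 2.08-fold lower (1.33 to 3.24; difference -1.06 ± 0.268 log2, limma adjusted p = 0.585). In WT, 0.182% of all probe sets had a lower difference than Sult1a1.

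Fgd5 was at 8.89 and 8.37 in WT non-irradiated arrays and at 8.27 and 7.59 in WT 2 Gy arrays. In CD169-DTR arrays it was at 8.44 and 8.44 without irradiation and at 7.92 and 8.12 after it. The irradiated arrays were all lower, but the highest of them, at 8.27, was close to the lowest non-irradiated array, at 8.37. The difference was -0.70 ± 0.263 log2 in WT (limma adjusted p = 0.601) and -0.42 ± 0.263 in CD169-DTR (adjusted p = 0.857). Without WT 2 Gy replicate 2, the WT difference was -0.36.

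Ctnnal1 differed in the opposite direction. It was at 7.52 and 7.66 in WT non-irradiated arrays and at 8.09 and 7.76 in WT 2 Gy arrays. The CD169-DTR values were 7.26 and 7.51 without irradiation and 8.36 and 8.03 after 2 Gy. All 4 irradiated arrays were higher than all 4 others. The level after 2 Gy was 1.75-fold higher in CD169-DTR (1.29 to 2.37; difference 0.81 ± 0.183 log2, limma adjusted p = 0.544). The WT difference was 0.34 ± 0.183 log2 (adjusted p = 0.672), or 0.17 without WT 2 Gy replicate 1.

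The nuclear members showed no separation over both genotypes. Hoxb5 was at 5.50 and 5.41 in WT non-irradiated arrays and at 5.78 and 5.15 in WT 2 Gy arrays. CD169-DTR arrays stood at 5.83 and 5.44 without irradiation and at 5.37 and 5.06 after it. Both WT 2 Gy arrays thus enclosed the non-irradiated pair, and only the CD169-DTR groups did not overlap, as in 13.4% of all probe sets on the lower side. The differences were 0.01 ± 0.245 log2 in WT (adjusted p = 0.993 in limma) and -0.42 ± 0.245 in CD169-DTR (adjusted p = 0.842).

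Mllt3 was at 11.15 and 11.37 in WT non-irradiated arrays and at 11.31 and 10.69 in WT 2 Gy arrays. CD169-DTR arrays were at 11.07 and 10.73 without irradiation and at 10.89 and 10.48 after 2 Gy. The groups overlapped in both genotypes. The limma differences were -0.26 ± 0.255 log2 (adjusted p = 0.769) and -0.22 ± 0.255 log2 (adjusted p = 0.942).

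**Figure D2:**
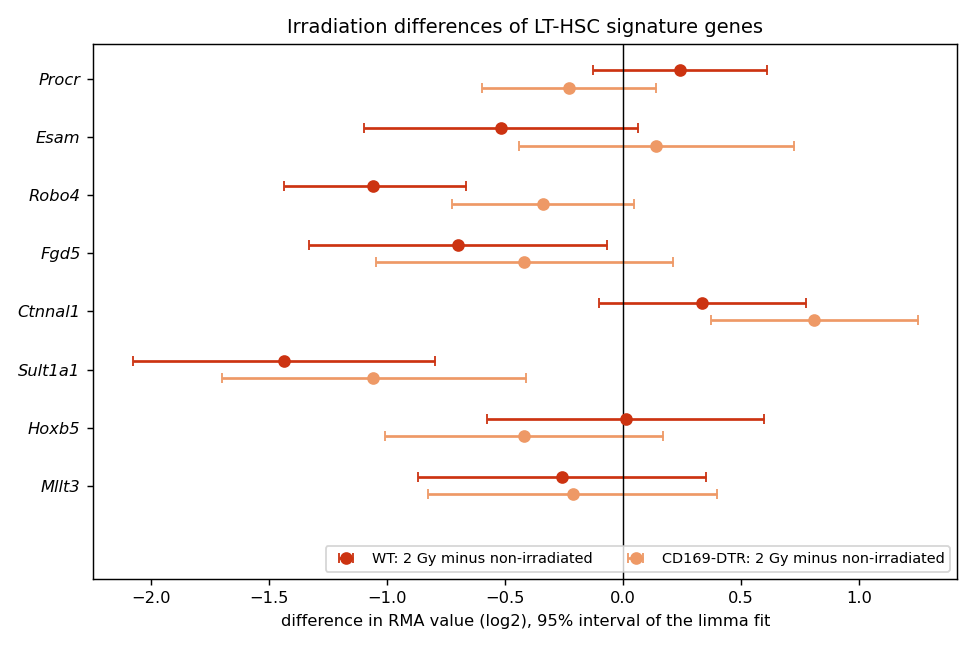
Difference in log2 expression, 2 Gy minus non-irradiated (horizontal axis), for each member (vertical axis) in WT and in CD169-DTR mice; points are limma estimates and lines their 95% confidence intervals. The intervals of Sult1a1 lie below 0 in both genotypes, those of Robo4 and Fgd5 in WT only, and that of Ctnnal1 lies above 0 in CD169-DTR only.

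Pooled over genotype, each of Sult1a1, Robo4, Fgd5 and Ctnnal1 had an exact two-sided permutation p of 0.0286 (4 against 4 arrays). That is the smallest p which the 70 possible splits allow, and any gene with full separation has it. For these 4 genes, named above for their separation, the p restates it and is no further test. The splits also took no account of genotype. The exact permutation p was 1 for Procr, 0.457 for Esam, 0.257 for Hoxb5 and 0.286 for Mllt3. Among all probe sets, 1.74% had all irradiated arrays below all others, as did 3 of the 8 members, and 3.76% had them above, as did 1 of the 8. The members were chosen with earlier results of these data known and lay above the array median in every array. Their counts beside the shares of all probe sets are therefore a description and no test. In the fit, the averages were -1.25 ± 0.189 log2 for Sult1a1 (limma adjusted p = 0.209), -0.70 ± 0.114 for Robo4 (adjusted p = 0.259), -0.56 ± 0.186 for Fgd5 (adjusted p = 0.476) and 0.57 ± 0.129 for Ctnnal1 (adjusted p = 0.353).

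**Figure D3:**
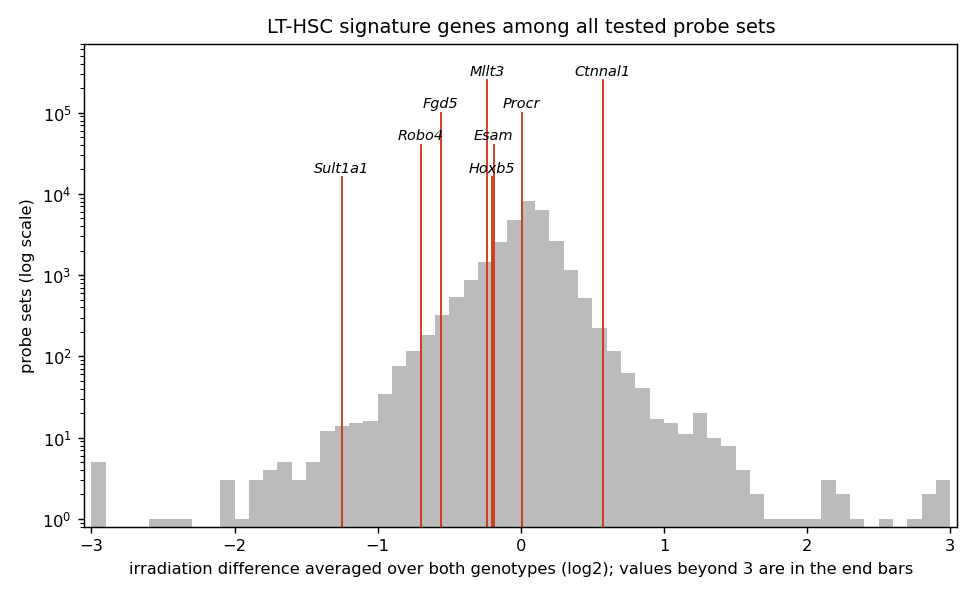
Histogram of the irradiation difference averaged over both genotypes (horizontal axis, log2) for all 30294 probe sets (vertical axis, number of probe sets, log scale), with the 8 members marked by lines. Sult1a1 and Robo4 lie in the lower tail and Ctnnal1 in the upper, whereas Procr lies near 0.

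An unadjusted p under 0.05 together with a fold of at least 1.5 is a looser rule with no control of chance over the table. For irradiation in WT it took Sult1a1, Robo4 and Fgd5, all lower, where 1.83% of all probe sets met it in that direction. In CD169-DTR it took Sult1a1 on the lower side, where 2.18% of all probe sets met it, and Ctnnal1 on the higher, where 1.4% did. On the average it took Sult1a1 and Robo4, against 1.24% of all probe sets on the lower side. The median difference of the members was -0.39 log2 in WT and -0.29 in CD169-DTR, beside 0.08 and 0.04 over all probe sets. The WT median was -0.155 without WT 2 Gy replicate 2, and that of CD169-DTR was -0.16 without CD169-DTR 2 Gy replicate 2. In WT 5 of 8 members were lower, beside 35.2% of all probe sets, and in CD169-DTR 6 of 8, beside 42.6%.

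The second question was whether LT-HSC of CD169-DTR mice differed from those of WT mice without irradiation. Esam and Sult1a1 had the largest differences of the members, and 7 of 8 members were lower in CD169-DTR, beside 42.2% of all probe sets. Esam was 1.64-fold lower (1.09 to 2.45; difference -0.71 ± 0.244 log2, limma adjusted p = 0.999). Without CD169-DTR non-irradiated replicate 1, at 7.6 beside its partner at 8.26, the difference was -0.38. Sult1a1 differed by -0.63 ± 0.268 log2 (adjusted p = 0.999), and no array of the CD169-DTR pair reached the WT pair. Robo4, Ctnnal1 and Mllt3 also did not overlap, with differences of -0.275 ± 0.161, -0.205 ± 0.183 and -0.36 ± 0.255 log2, where 11.9% of all probe sets were lower without overlap. Hoxb5, at 0.18 ± 0.245, was the member on the higher side. The adjusted p was passed by 0 of 8 members, as by 0% of all probe sets, and 1 of 8 members had an unadjusted p under 0.05, beside 4.38% of all probe sets. Esam alone met the looser rule, beside 0.871% of all probe sets on the lower side. The non-irradiated WT arrays enter this comparison and the irradiation comparison in WT, so these differences are not independent.

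The third question was whether macrophage depletion mattered after 2 Gy. Procr was 1.49-fold lower in CD169-DTR 2 Gy arrays than in WT 2 Gy arrays (1.15 to 1.92), at 6.62 and 6.27 against 7.03 and 7.01. The difference was -0.58 ± 0.154 log2, with a limma p of 0.00816 and an adjusted p of 0.619. Robo4 was 1.36-fold higher (1.04 to 1.77; 0.44 ± 0.161 log2, limma adjusted p = 0.648), and 0.225 without WT 2 Gy replicate 1. Neither gene's pairs overlapped, as was so for 18.9% of all probe sets on the lower side and 16% on the higher. The other 6 members had differences between -0.32 and 0.27 log2, and all of their pairs overlapped. The adjusted p was passed by 0 of 8 members and by 0% of all probe sets, and 2 of 8 members had an unadjusted p under 0.05, beside 7.57% of all probe sets.

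The difference between both irradiation differences, CD169-DTR minus WT, was tested as an interaction. For Robo4 it was 0.72 ± 0.228 log2 (95% confidence interval 0.17 to 1.26), with a limma p of 0.0179 and an adjusted p of 0.913. Its lower level after 2 Gy was thus smaller in size in CD169-DTR, with a p that did not pass the adjustment. For Procr the interaction was -0.47 ± 0.218 (limma adjusted p = 0.935) and for Esam 0.66 ± 0.345 (limma adjusted p = 0.957). Sult1a1 had 0.39 ± 0.378 (interval -0.52 to 1.29) and Fgd5 0.28 ± 0.372 (interval -0.61 to 1.17), so these arrays leave a wide range for how far the genotypes differ. The adjusted p was passed by 0 of 8 members and 0% of all probe sets, and 1 of 8 members had an unadjusted p under 0.05, beside 5.17% of all probe sets. Robo4 met the looser rule, beside 1.96% of all probe sets on the higher side.

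**Figure D4:**
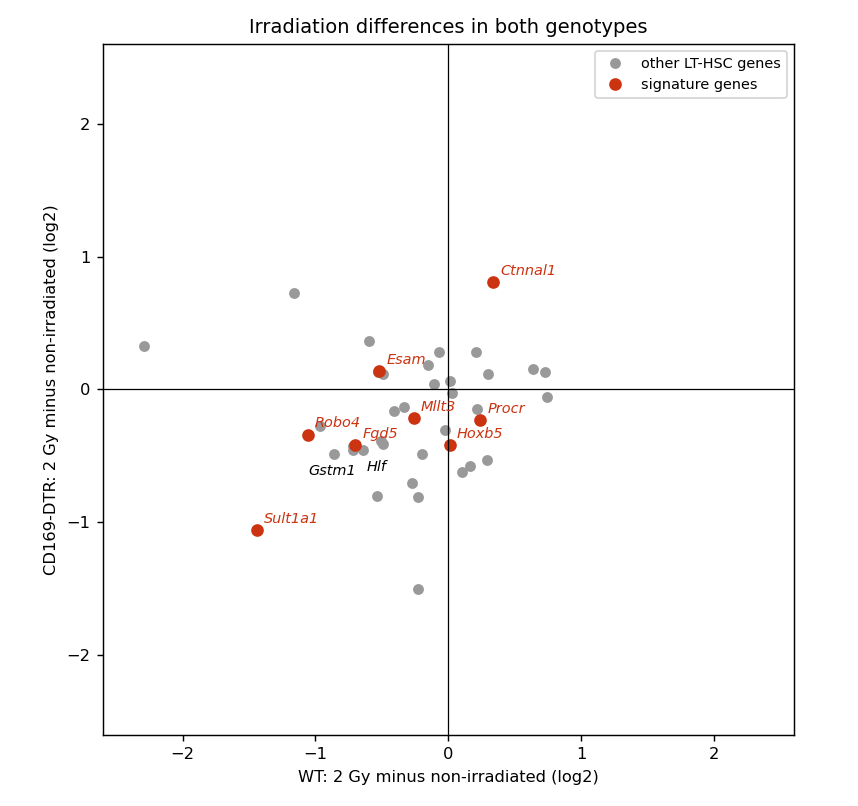
Irradiation difference in WT (horizontal axis, log2) against that in CD169-DTR (vertical axis, log2) for the 8 members and the 34 other measured LT-HSC genes; each point is 1 gene and the lines mark a difference of 0. Sult1a1, Gstm1 and Hlf are lower in both, Robo4 is further from 0 in WT and Ctnnal1 in CD169-DTR.

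The members did not all vary together across the arrays. Of 28 pairs of members, 18 had a positive correlation over the 8 arrays, with a median r of 0.25. The range ran from -0.65 for Robo4 with Ctnnal1 to 0.78 for Fgd5 with Sult1a1. These 8 arrays share the group differences, so the correlations are a description. The mean deviation of the members from their own means was 0.28 and 0.33 log2 in WT non-irradiated arrays and 0.02 and -0.26 in WT 2 Gy arrays. In CD169-DTR arrays it was -0.01 and 0.04 without irradiation and -0.09 and -0.31 after it. Both WT non-irradiated arrays were the highest, and the lowest was CD169-DTR 2 Gy replicate 2.

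The 34 measured of 36 other LT-HSC genes were described in the same way. After 2 Gy, 23 of 34 were lower in WT (median -0.23 log2), 21 of 34 in CD169-DTR (median -0.16) and 24 of 34 on average, beside 35.2%, 42.6% and 36.1% of all probe sets. Of the 34, 0 passed the adjusted p in limma, and 10, 7 and 11 of 34 had an unadjusted p under 0.05 in WT, in CD169-DTR and on average, where 7.81%, 6.77% and 9.23% of all probe sets had one. Gstm1, which encodes a glutathione transferase, had the smallest p. It was at 12.22, 12.01, 12.09 and 11.99 in the non-irradiated arrays and at 11.22, 11.29, 11.63 and 11.48 in the irradiated ones, WT before CD169-DTR in each. All irradiated arrays were lower, as in 1.74% of all probe sets, with an average difference of -0.67 ± 0.0917 log2 (limma adjusted p = 0.209). Hlf, a transcription factor of HSC, was at 13.33, 13.18 and 12.94, 12.95 in WT and CD169-DTR non-irradiated arrays and at 12.70, 12.53 and 12.44, 12.54 after 2 Gy. Its average difference was -0.55 ± 0.0874 log2 (limma adjusted p = 0.235), and all irradiated arrays were again below the others.

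Relatives and partners of each member were read as 9 lists with 81 measured genes. For irradiation, 0 of 81 passed the adjusted p in limma, and 7 in WT, 5 in CD169-DTR and 7 on average had an unadjusted p under 0.05, beside 7.81%, 6.77% and 9.23% of all probe sets, so these counts were near the background. After 2 Gy, 64.4% of all probe sets were higher and 35.2% lower in WT, and 56.8% were higher and 42.6% lower in CD169-DTR. On average 63.8% were higher and 36.1% lower, and the counts of each list stand beside these shares. The shares are for the values as deposited and do not apply to counts after rescaling. Small medians depend on how the arrays are scaled, so they are also given after cyclic loess or median centring where their sign turned. In the coagulation and protein C list of Procr, 7 of 7 measured genes were higher in WT after 2 Gy (median 0.48 log2; 6 of 7 after either rescaling) and 6 of 7 in CD169-DTR (median 0.25). F5, coagulation factor V, was 0.96 ± 0.359 log2 higher in WT (limma adjusted p = 0.601) and -0.12 ± 0.359 in CD169-DTR. F2rl2, a thrombin receptor (PAR3), had 0.85 ± 0.529 log2 in WT and 0.88 ± 0.529 in CD169-DTR. The mean log2 level over the list was highest in WT 2 Gy replicate 1 among the WT arrays, at 6.90, beside 6.31 in its partner and 6.08 and 6.14 in the non-irradiated arrays. Without that array, an alternative chosen after seeing the data, 6 of 7 genes were higher in WT, the median was 0.14, and F2rl2 and F5 had differences of 0.14 and 0.44. Of 10 Robo, Slit and effector genes, 7 were higher in WT and 6 in CD169-DTR, with medians of 0.08 and 0.02. The medians turned to -0.02 and -0.03 after cyclic loess and -0.04 and -0.005 after median centring. Of the 10, 8 were below the array median in all 8 arrays, with Robo1, Robo2 and Robo3 among them. Srgap3, a GTPase activating protein downstream of Slit and Robo, was at 7.02, 7.03, 7.04 and 6.88 in the 4 non-irradiated arrays and at 6.70, 6.50, 6.26 and 6.36 in the irradiated ones. All of its irradiated arrays were lower, as in 1.74% of all probe sets, with an average difference of -0.54 ± 0.0905 log2 (limma adjusted p = 0.27).

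Of 8 junction proteins related to Esam or bound to it, 6 were higher in WT (median 0.10 log2, or -0.02 after median centring) and 3 in CD169-DTR (median -0.03). Jam3, a junctional adhesion molecule, had 0.64 ± 0.2 log2 in WT and -0.37 ± 0.2 in CD169-DTR, and its relative F11r (JAM-A) had -0.83 ± 0.341 and -0.27 ± 0.341. Jam3 lay between 4.62 and 5.62, around the array medians, and 4 of the 8 junction genes were below the array median in all 8 arrays. All 6 of the FGD family and Cdc42 list were lower in WT (median -0.18), and 3 of 6 in CD169-DTR (median -0.09). Fgd4, another exchange factor for Cdc42, had -0.56 ± 0.188 log2 on average, the same size as Fgd5 (limma adjusted p = 0.48). Of 6 measured catenins and relatives, 3 were higher in WT (median 0.005, or -0.05 after cyclic loess and -0.11 after median centring) and 4 in CD169-DTR. Vcl (vinculin) had 0.40 ± 0.163 on average (limma adjusted p = 0.539). Among 10 other sulfotransferases and the enzymes that make their sulfate donor, 7 were higher in WT and 8 in CD169-DTR, with medians of 0.10 and 0.12, the former -0.00791 after cyclic loess and -0.0125 after median centring. Under each scaling these medians were far smaller in size than the difference of Sult1a1. However, 7 of the 10 were below the array median in all 8 arrays, where a lower level could hardly be seen. Only Papss1 and Papss2, which make the sulfate donor, were above it in all 8.

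Of 16 measured Hox genes of the A and B clusters besides the members, 10 were lower in WT (median -0.07 log2) and 6 in CD169-DTR (median 0.15). Of the 16, 9 were below the array median in all 8 arrays. In WT 13 of 16 were lower after either rescaling, with medians of -0.184 after cyclic loess and -0.188 after median centring. The median of all probe sets in WT also moved, by -0.0736 and -0.115 log2. The share of all probe sets that were lower is not given after rescaling. Hoxa10 had -0.245 ± 0.101 on average (limma adjusted p = 0.539) and Hoxa6 had -0.81 ± 0.372 (adjusted p = 0.559). Of 5 measured Hox cofactors, 4 were lower in WT (median -0.28 log2) and 2 in CD169-DTR (median 0.055). Meis1, a DNA-binding cofactor of Hox proteins in HSC, had -0.35 ± 0.221 log2 in WT and -0.68 ± 0.221 in CD169-DTR (limma adjusted p = 0.628). In CD169-DTR, Pbx3 and Pknox1 of the same list were on the higher side, at 0.285 ± 0.155 and 0.3 ± 0.408 log2. Among 13 partners of Mllt3 in the Dot1l and elongation complexes, 12 were lower on average (median -0.23), beside 36.1% of all probe sets. Ell, an elongation factor of RNA polymerase II, was at 9.81, 10.01, 10.18 and 10.35 in the non-irradiated arrays and at 9.46, 9.25, 9.70 and 9.27 in the irradiated ones. All irradiated values of Ell lay below the others, as in 1.74% of all probe sets, and the average difference was -0.67 ± 0.129 log2 (limma adjusted p = 0.302).

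Sorted cells were measured in bulk, so fewer cells of a type and less RNA per cell cannot be told apart. Markers of other cells are therefore given beside the members, and their part in the members' differences was not tested. Since Procr, Esam, Robo4 and Fgd5 are shared with endothelium, 10 endothelial markers were read. Their mean was 5.76 to 5.80 in non-irradiated and 5.50 to 5.61 in irradiated WT arrays, and 5.66 to 5.68 and 5.47 to 5.74 in those of CD169-DTR. Of these 10, Cdh5, Plvap, Lyve1, Flt1 and Ptprb were below the array median in all 8 arrays, and Pecam1, Tie1 and Emcn were above it in all 8. In WT 5 of 10 were lower after 2 Gy, beside 35.2% of all probe sets, and in CD169-DTR 4 of 10, beside 42.6%. After cyclic loess or median centring 8 of 10 were lower in WT and 5 of 10 in CD169-DTR. The 35.2% and 42.6% do not apply to these rescaled counts. The median of all probe sets in WT moved from 0.075 to 0.00142 log2 with cyclic loess and to -0.04 with median centring. Cldn5, a tight junction claudin, had -1.59 ± 0.285 log2 in WT (limma adjusted p = 0.37) and -0.07 ± 0.285 in CD169-DTR. Lyve1 had 0.34 ± 0.109 log2 in WT (limma adjusted p = 0.566) and 0.015 ± 0.109 in CD169-DTR.

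The mean of 12 neutrophil and granulocyte-monocyte progenitor (GMP) markers was 7.44 to 8.295 in WT non-irradiated arrays and 9.39 to 10.1 in WT 2 Gy arrays. In CD169-DTR arrays it was 8.68 to 9.39 without irradiation and 8.53 to 9.24 after it. All 12 were higher in WT after 2 Gy (median 1.73 log2), against 4 of 12 in CD169-DTR (median -0.12), beside 64.4% and 56.8% of all probe sets. The adjusted p was passed by 0 of 12 in limma. An unadjusted p under 0.05 was had by 8 of 12 in WT and 0 of 12 in CD169-DTR, beside 7.81% and 6.77% of all probe sets. The mean of 7 measured megakaryocyte markers was 9.86 to 9.95 and 9.77 to 11.2 in WT, and 9.40 to 9.82 and 9.91 to 10.5 in CD169-DTR, without and with 2 Gy. Mast cell and basophil markers had means of 8.16 to 9.22 and 8.45 to 9.14 in WT, and of 7.52 to 7.90 and 9.16 to 9.48 in CD169-DTR. The mean of 7 measured erythroid markers was 8.57 to 8.90 without and 7.71 to 8.45 with 2 Gy in WT. In CD169-DTR it was 8.08 to 9.50 without and 7.11 to 8.07 with 2 Gy. Of these 7 markers, 4 were lower in WT and 7 in CD169-DTR, beside 35.2% and 42.6% of all probe sets. The largest differences were those of Car1, at -3.04 ± 1.66 log2 in WT and -4.1 ± 1.66 in CD169-DTR. The 8 macrophage markers had means between 4.69 and 5.11 and the 6 measured lymphoid markers between 6.30 and 7.59 over all arrays. Cd48 was at 11.24, 10.98, 11.05 and 12.54 in the non-irradiated arrays and at 12.95, 12.14, 13.47 and 13.00 in the irradiated ones. It was higher by 1.44 log2 in each genotype (limma adjusted p = 0.393 on average), with 1 non-irradiated CD169-DTR array inside the irradiated range. Flt3, whose protein the sort also excluded, differed in the opposite direction. Its values were 7.99, 7.12, 7.37 and 8.22 without irradiation and 6.45, 6.65, 5.85 and 6.48 after it. All irradiated arrays of Flt3 were lower, as in 1.74% of all probe sets, with -1.32 ± 0.279 log2 on average (limma adjusted p = 0.329). Cd34, read in the same list, had -0.0925 ± 0.162 log2 on average.

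**Figure D5:**
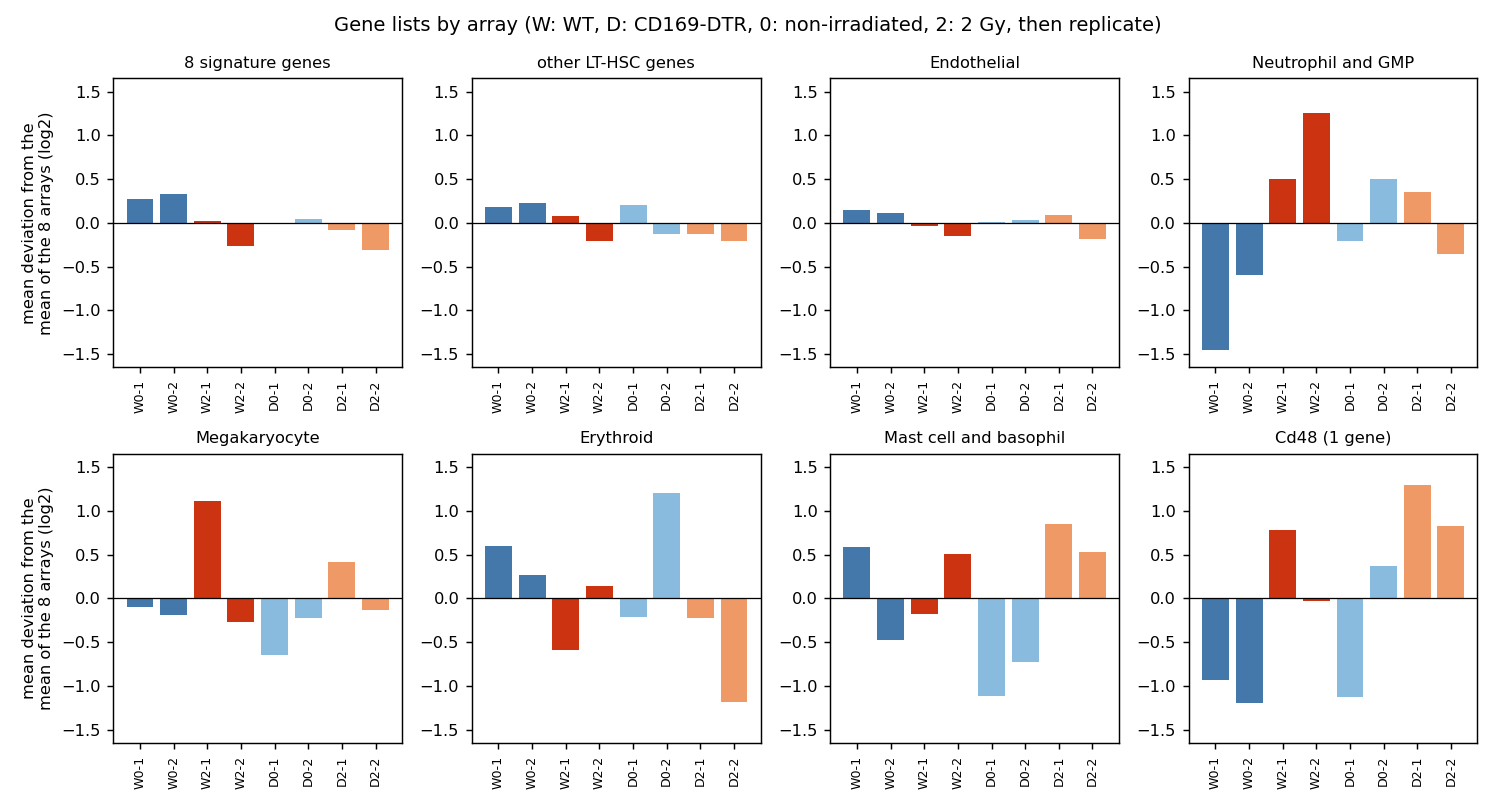
Mean deviation of each gene list from its mean over the 8 arrays (vertical axis, log2) in each array (horizontal axis, coloured by group), for the members, the other LT-HSC genes, markers of other cell types including granulocyte-monocyte progenitors (GMP), and Cd48. The neutrophil and GMP list is lowest in both WT non-irradiated arrays and highest in WT 2 Gy replicate 2.

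The probe sets most like each member over the 8 arrays were found among 12612 candidates, by Pearson's r. With 8 arrays, 4 group means and so many candidates, values of this size are a description only. The closest to Robo4 were Dio2 (r = 0.981), Tns2 (r = 0.975) and Rc3h1 (r = 0.965), with WT differences of -1.02, -1.03 and -0.995 log2. Those of Sult1a1 were Tent2 (r = 0.978), Ube2w (r = 0.957) and Ccm2 (r = 0.957). Fgd5 was closest to Tbc1d8 (r = 0.970), Stat5b (r = 0.964) and Mideas (r = 0.959). For Ctnnal1 they were both probe sets of Pam16 (r = 0.982 and 0.947) and Lhpp (r = 0.954). Procr was closest to Lats1 (r = 0.972), Rpl21-ps7 (r = 0.959) and Mir669m-1 (r = 0.957), and Esam to Abca1, Tbc1d23 (r = 0.963 each) and Ogt (r = 0.938). Hoxb5 had Atn1 (r = 0.956), Stat3 (r = 0.955) and Tug1 (r = 0.952), and Mllt3 had Kat6b (r = 0.953), Dcun1d1 (r = 0.952) and Coq8a (r = 0.946).

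Robo4 and Esam lie near each other on mouse chromosome 9, in the order Hepacam, Robo4, Robo3, Msantd2, Esam, Vsig2 and Nrgn in the RefSeq table of GRCm38.p6. This neighbourhood was looked at after the values were seen. In WT, the differences after 2 Gy were -0.02 for Hepacam, 0.07 for Robo3, 0.24 for Msantd2, -0.41 for Vsig2 and 0.15 for Nrgn, beside -1.06 for Robo4 and -0.52 for Esam. In CD169-DTR they lay between 0.005 and 0.16 for Hepacam, Robo3, Msantd2 and Vsig2, with 1.07 for Nrgn, a calmodulin-binding protein. Robo3 and Msantd2, which stand between Robo4 and Esam, thus had differences of at most 0.24 log2, on the higher side. Mean levels were 3.95 for Hepacam, 4.38 for Robo3 and 5.66 for Msantd2, beside 8.02 for Robo4 and 8.19 for Esam. Robo3 was below the array median in all 8 arrays, so a lower level could hardly be seen there.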

How the data were processed

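Each array had 1 deposited value per probe set. The submitters' processing notes name RMA, robust multi-array averaging, as what the authors ran. The deposited values were taken as log2, the convention of RMA, although the table does not state the base. They were used as given, without a filter. The members and gene lists were chosen with earlier results of these data known.

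Of 40161 probe sets, 30294 carried 1 symbol in the platform's gene table and were tested. Where a gene had several, the one with the highest mean was to be used. The fit used limma 3.58.1 and statmod 1.5.0 in R 4.3.3, with a mean for each of 4 groups (4 residual and 2.59 prior degrees of freedom). Tests were two-sided, Benjamini-Hochberg adjusted over 30294 probe sets per comparison, with a threshold of 0.05, and tested on simulated data. The number of arrays limits the precision. No depth applies to arrays.

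Every measured member was named, and in other lists up to 2 genes with the smallest unadjusted p for irradiation, with Cdkn1a, Siglec1, Kit, Slamf1, Cd48 and Flt3. For likeness, candidates had a mean over all 8 arrays above the 40th percentile and excluded predicted genes and olfactory and vomeronasal receptors. Alternatives were an intensity trend, a dim filter at the 40th percentile, every probe set, cyclic loess, median centring, array weights, a replicate block, fewer groups in the fit, a looser call rule, and arrays left out singly or as the far pair. An array whose partner was left out was assumed to vary like the other groups.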

Additional observations from a re-analysis of the deposited data

Results flagged for a closer look

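Procr was the member whose irradiation difference had 1 sign in every WT array and the opposite sign in every CD169-DTR array. Both WT 2 Gy arrays were above both WT non-irradiated arrays, and both CD169-DTR 2 Gy arrays were below both CD169-DTR non-irradiated arrays. The difference between the genotypes was -0.47 ± 0.218 log2 (adjusted p = 0.935 in limma), which did not pass the threshold. With single arrays left out, the interaction ran from -0.645 to -0.295, the WT difference from 0.13 to 0.35 and the CD169-DTR difference from -0.405 to -0.055. The last value was that without CD169-DTR 2 Gy replicate 2.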

How the results depend on the processing

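No member passed the adjusted p under any of 17 settings, the lowest being 0.136 for Robo4 in WT without WT 2 Gy replicate 2. The replicate numbers were not taken to pair the arrays, as the correlations of same-numbered deviations ran from -0.0877 to 0.159 and no label ties a number to an experiment. With the replicate block 0 members passed, and Robo4 in WT had an adjusted p of 0.449. Under an unadjusted p under 0.05 with a fold of at least 1.5, the counts of members were 3 for WT irradiation, 2 for CD169-DTR irradiation, 2 for the average, 1 for depletion without irradiation and 1 for the interaction. Of 800 alternative values for 48 member differences, 32 were reversed, and the cause was not tested. Hoxb5 in WT became -0.07 with cyclic loess, -0.105 with median centring and -0.305 without both far 2 Gy arrays. Median centring moved the median of all probe sets in WT irradiation by -0.115 log2. With it, Procr on average became -0.0625 and Esam in depletion after 2 Gy 0.02. Without both far arrays, the values for depletion after 2 Gy became 0.01 for Esam, 0.28 for Sult1a1, 0.22 for Hoxb5 and 0.2 for Mllt3, with a median of members of 0.21, and the interaction of Hoxb5 became 0.04. With single arrays left out, irradiation ran from -0.305 to 0.325 for Hoxb5 in WT, -0.57 to 0.05 for Mllt3 in WT, -0.19 to 0.47 for Esam in CD169-DTR and -0.0825 to 0.0925 for Procr on average. Depletion without irradiation ran from -0.215 to 0.005 for Procr, -0.45 to 0.07 for Fgd5 and -0.015 to 0.375 for Hoxb5. Depletion after 2 Gy ran from -0.23 to 0.13 for Esam, -0.25 to 0.43 for Fgd5, -0.585 to 0.105 for Sult1a1 and -0.565 to 0.065 for Hoxb5. The interaction ran from -0.06 to 0.62 for Fgd5, -0.265 to 0.355 for Mllt3 and -0.01 to 0.52 for the median of members. Each member had 1 probe set, so a mean over several could not be tried, and a fit of only the groups compared does not apply to the average and the interaction.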
